A study of Mus musculus with 12 samples.

Results

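Plasminogen activators and their inhibitors are described here in cultured mouse synoviocytes of the fibroblast-like kind, which form part of the joint lining, through the genes Plau, Plat, Plaur, Serpinb2 and Serpine2. The 5 genes were taken by their symbols from the 53341 genes of the deposited table, and all 5 were among the 18139 genes that passed the filter on low values. The study has 12 RNA libraries, 3 in each of 4 groups. SoxC_KO_TNF libraries came from cells given an adenovirus with a CMV promoter driving Cre and then TNF, SoxC_KO libraries from cells given the Cre virus alone, control_TNF libraries from cells given an adenovirus with a CMV promoter driving eGFP and then TNF, and control libraries from cells given the eGFP virus alone. The TNF was recombinant and human, at a dose of 10 ng/mL over 16 h. All groups came from mice described as SoxC, named for the Sox4, Sox11 and Sox12 transcription factors, and all carried a virus, so no group here shows cells without one. The study asks which TNF responses of these cells depend on SOXC.

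The plasminogen system turns the circulating zymogen plasminogen into plasmin, a broad protease that dissolves fibrin and activates matrix metalloproteinases. Plau encodes urokinase and Plat the tissue activator, the serine proteases that cleave plasminogen, and Plaur encodes the cell surface receptor that holds urokinase at the membrane. Serpinb2 encodes plasminogen activator inhibitor 2, a largely intracellular serpin that inhibits urokinase, and Serpine2 encodes protease nexin-1, a secreted serpin that inhibits thrombin, urokinase and the tissue activator. In joints the system is known for fibrin removal and for pericellular matrix breakdown by synovial cells.

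All values are normalized counts on a linear scale, and differences are on the scale of log2(normalized count + 1). At the estimated depth the lowest value of any member, Serpinb2 in 1 SoxC_KO library, stood for about 130 read pairs. This takes the commonest low value of a library as 1 read pair, which was not established. The 13 synoviocyte markers were all present in every group. Pdgfra was at 1462 normalized counts or more and the lining gene Prg4 at 3539.9 or more in every library, while the leukocyte gene Ptprc was at 19.1 or less. Other macrophage markers differed in level. C1qa was at 10.7 or less, while Lyz2 was at 677 to 2438 and Csf1r at 193 to 670. The 4 libraries numbered 3, 1 of each group, stood apart from the other 8 on the first principal component, which held 51.6% of the variance. Albumin (Alb), a liver transcript, reached 2690 in SoxC_KO_TNF replicate 1 and 382 in control_TNF replicate 2. The muscle gene Myh4 was at 277 in SoxC_KO_TNF replicate 1 and 188 in SoxC_KO replicate 1, and at 13.3 or less elsewhere. Ckm was at 95.3 and 59.2 in the same libraries, and at 4.45 or less elsewhere. Tnnt3 and Myl1 were also highest in SoxC_KO_TNF replicate 1, while Acta1 and Actn3 were highest in SoxC_KO replicate 3. The part of muscle transcripts in the members' levels was not tested. Whether replicates are separate animals or cultures is not stated, and the p-values therefore reflect only how far these libraries vary, which could be technical variation. RNA of a whole culture cannot separate fewer cells of a type from less RNA per cell.

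The members lie on 4 chromosomes (mm10). Plau (ENSMUSG00000021822) spans 20836660 to 20843385 on the plus strand of chromosome 14, Plaur (ENSMUSG00000046223) spans 24462484 to 24475968 on the plus strand of chromosome 7, and Plat (ENSMUSG00000031538) spans 22757727 to 22782844 on the plus strand of chromosome 8. Serpine2 (ENSMUSG00000026249) occupies 79794197 to 79861180 on the minus strand of chromosome 1. Serpinb2 (ENSMUSG00000062345) occupies 107511423 to 107535478 on the plus strand of the same chromosome, within a run of 12 clade B serpin genes. Each is annotated as protein-coding, and only Serpinb2 overlaps another annotated gene, Serpinb10, on the same strand. Serpinb10 was at 10.5 normalized counts or less in every library, and reads from the shared stretch may have been split between them.

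RefSeq start-site windows were found for 3 of the 5 members. The members shown are those with a window, and none was found for Plau or Plat. Serpinb2 had 2 windows, of which only the 1 nearest the gene start in the deposited table was searched and is shown. Each line gives the 250 bases before the start site, 5′ to 3′ on the gene's strand (GRCm38.p6), with matches to the searched motifs in capitals.
Serpinb2, chr1:107511173-107511422, plus strand: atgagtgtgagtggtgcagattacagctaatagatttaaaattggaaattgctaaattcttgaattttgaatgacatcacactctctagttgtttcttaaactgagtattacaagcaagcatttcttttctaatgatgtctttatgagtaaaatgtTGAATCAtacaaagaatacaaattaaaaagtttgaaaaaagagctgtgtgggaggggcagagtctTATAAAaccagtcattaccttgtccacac
Plaur, chr7:24462233-24462482, plus strand: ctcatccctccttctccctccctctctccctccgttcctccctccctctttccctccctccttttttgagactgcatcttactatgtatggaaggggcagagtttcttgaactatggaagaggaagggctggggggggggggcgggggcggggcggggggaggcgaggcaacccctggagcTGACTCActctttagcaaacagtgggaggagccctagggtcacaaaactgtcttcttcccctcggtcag
Serpine2, chr1:79858666-79858915, minus strand: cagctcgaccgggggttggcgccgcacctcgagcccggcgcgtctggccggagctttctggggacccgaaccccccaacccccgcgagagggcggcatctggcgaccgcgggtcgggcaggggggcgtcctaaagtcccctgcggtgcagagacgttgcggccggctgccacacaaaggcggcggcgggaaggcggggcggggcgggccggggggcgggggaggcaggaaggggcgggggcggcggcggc
The windows from 250 bases before to 50 after the start were searched for the AP-1 motif TGANTCA, the NF-kB consensus and the SOX motif AACAAAG on both strands, and for the TATA box TATAAA on the gene's strand. Serpinb2 held 1 AP-1 match 94 to 88 bases before its start and 1 TATA box match 29 to 24 bases before it. Plaur held 1 AP-1 match 69 to 63 bases before its start, and Serpine2 held no match. Neither the NF-kB consensus nor the SOX form AACAAAG matched in these 3 windows. Looser forms of the SOX motif were not searched. The Serpinb2 window holds tacaaag after its AP-1 match, which differs from the searched form in its first base. Of 32851 windows of the same length, 7.81% held the AP-1 motif, 8.32% the TATA box, 8.46% the NF-kB consensus and 5.85% the SOX motif. The 250 bases were 32.4% G or C in Serpinb2, 59.6% in Plaur and 78.8% in Serpine2, against a median of 52.4% over all windows. The Serpine2 window starts 2515 bases inside the gene's outer end in the deposited table.

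Per kilobase of exon, urokinase and protease nexin-1 were the most abundant members, and inhibitor 2 changed its place in the order with TNF. The length was the union of all annotated exons, at 8287 bases for Serpine2, 6241 for Plat and 2367 for Plau. The order depends on this length, since in counts Serpine2 averaged 17958 and Plau 5806. Averaged over the 12 libraries, Plau stood at 2453 normalized counts per kilobase and Serpine2 at 2167, levels above 97.3% and 96.8% of the genes kept. Plau was above Serpine2 in 10 of the 12 libraries, the exceptions being replicate 3 of SoxC_KO and of control. Plaur averaged 576 per kilobase and Plat 379. Serpinb2 averaged 1178 per kilobase in SoxC_KO_TNF libraries, against 219 in SoxC_KO libraries, and 1016 in control_TNF libraries, against 281 in control libraries. Per kilobase, Serpinb2 was the lowest or next to lowest of the 5 in each of the 6 libraries without TNF. It ranked above both Plaur and Plat in each of the 6 libraries with TNF. In counts Plat was above Serpinb2 in some of these, as in SoxC_KO_TNF replicate 1 (3148 against 2734). In others it was below, as in SoxC_KO_TNF replicate 3 (1651 against 3010.5). The substrate itself, Plg, was listed at 0 in 8 libraries and reached 119 and 11.9 normalized counts in the 2 libraries with liver transcripts, and 2.68 or less elsewhere.

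**Figure D1:**
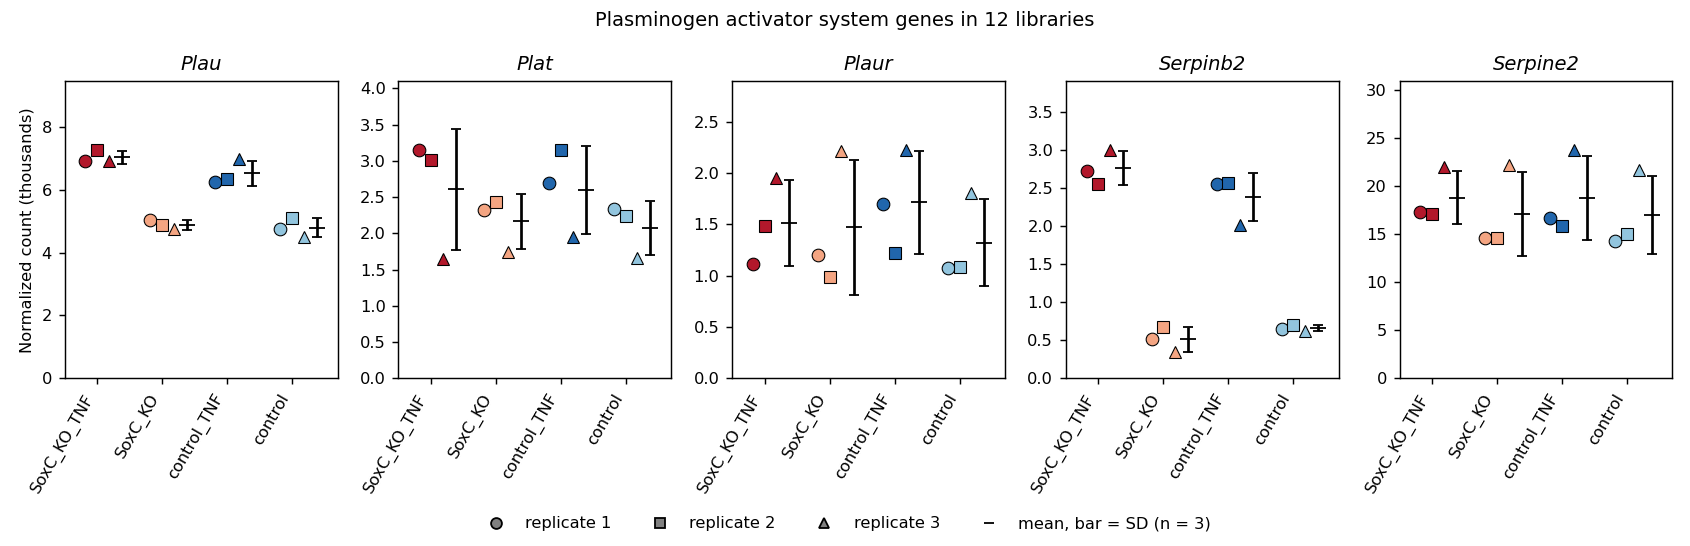
Normalized counts (vertical axes, each from 0, in the units printed on the axis) of the 5 genes in the 12 libraries, by group; marker shape gives the replicate number, and the bar beside each group is the mean with its SD (n = 3). Plau and Serpinb2 separate the libraries with TNF from those without in both genotypes, while Plaur and Serpine2 are highest and Plat lowest in the libraries numbered 3.

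Serpinb2 rose with TNF in both genotypes. In knockout cells it stood at 2734, 2559.5 and 3010.5 normalized counts in SoxC_KO_TNF replicates 1 to 3, against 516, 675 and 350 in SoxC_KO replicates 1 to 3. In control cells it stood at 2562, 2578 and 2019 in control_TNF replicates 1 to 3, against 649, 705 and 625 in control replicates 1 to 3. The lowest library with TNF was thus well above the highest library without it. The group means were 2768 ± 227 in SoxC_KO_TNF against 513 ± 163 in SoxC_KO, with 2386 ± 318 in control_TNF against 660 ± 41.3 in control (SD, n = 3 each). The change was 5.56-fold in knockout cells (log2 2.48, SE 0.23, limma with Benjamini-Hochberg adjustment over all genes kept, adjusted p = 0.0015) and 3.60-fold in control cells (log2 1.85, SE 0.23, adjusted p = 0.00961). Serpinb2 was the 1 member called in each of these comparisons, where 0.243% of all genes in knockout cells and 0.287% in control cells were called higher. The call in knockout cells was kept when each of the 12 libraries was left out. In control cells it was lost without control replicate 1 or 2 or without control_TNF replicate 1 or 2, with log2 changes of 1.79 or more throughout. Without the 2 libraries with liver transcripts the limma adjusted p in control cells was 0.101, and fitted to the 2 groups alone it was 0.0762 in knockout cells and 0.0772 in control cells.

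Urokinase also rose with TNF when averaged over the genotypes, by less than Serpinb2. Plau was at 6915, 7273 and 6912 normalized counts in SoxC_KO_TNF replicates 1 to 3, against 5038, 4875 and 4734 in SoxC_KO replicates 1 to 3. In control cells it was at 6233, 6342 and 6983 in control_TNF replicates 1 to 3, against 4759, 5114 and 4498 in control replicates 1 to 3. The groups with and without TNF did not overlap in either genotype, nor did those of Serpinb2, a separation in both genotypes that 1.79% of all genes showed. The log2 change was 0.53 (SE 0.14, limma adjusted p = 0.247) in knockout cells and 0.44 (SE 0.14, adjusted p = 0.566) in control cells, so neither comparison alone passed. Averaged over the genotypes, 6 libraries against 6, it was 1.40-fold (log2 0.49, SE 0.10, limma adjusted p = 0.0415), and Plau and Serpinb2 were the 2 members called, against 0.877% of all genes called higher. An exact permutation test of each gene's own values within genotype (two-sided, unadjusted) gave p = 0.005 for Plau and for Serpinb2, the smallest that 400 arrangements allow, and p = 0.2 for Plat, 0.38 for Plaur and 0.39 for Serpine2. The average Plau call was close to the threshold. It was kept without SoxC_KO replicate 3 (limma adjusted p = 0.0433) and lost without each of the other 11 libraries in turn (adjusted p up to 0.135). The log2 change was 0.46 to 0.51 over all 12 of these fits. The call was also lost without the 2 libraries with liver transcripts (limma adjusted p = 0.198), with no filter on low values (0.191) and with quantile normalization (0.0541).

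Plaur, the urokinase receptor, varied more with library number than with TNF. It was at 1116, 1480 and 1953 normalized counts in SoxC_KO_TNF replicates 1 to 3, against 1204, 988 and 2219 in SoxC_KO replicates 1 to 3. In control cells it was at 1699, 1224 and 2228 in control_TNF replicates 1 to 3, against 1077, 1080 and 1808 in control replicates 1 to 3. Replicate 3 was the highest library of every group, at 1.504 to 2.025 times the mean of the other 2, and the groups overlapped. The log2 difference with TNF was 0.10 in knockout cells (95% interval -0.69 to 0.88) and 0.38 in control cells (-0.40 to 1.16), neither passing (limma adjusted p = 0.94 and 0.998). With library weights, under which 6462 genes were called in control cells, Plaur passed there (log2 0.62, limma adjusted p = 0.0106) and for the average (0.45, adjusted p = 0.014).

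Serpine2 showed the same dependence on number with a smaller spread otherwise. It was at 17359, 17106 and 22005 normalized counts in SoxC_KO_TNF replicates 1 to 3, against 14621, 14650 and 22233 in SoxC_KO replicates 1 to 3. Control cells held 16734.5, 15877 and 23834 in control_TNF replicates 1 to 3, against 14334, 15078 and 21664.5 in control replicates 1 to 3. Replicate 3 was again the highest of each group, at 1.28 to 1.52 times the mean of the other 2. The log2 difference with TNF was 0.15 in knockout cells (95% interval -0.38 to 0.69) and 0.15 in control cells (-0.39 to 0.68), neither passing (limma adjusted p = 0.876 and 0.998).

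Plat ran the other way by number. It was at 3148, 3016 and 1651 normalized counts in SoxC_KO_TNF replicates 1 to 3, against 2328, 2433 and 1737 in SoxC_KO replicates 1 to 3. In control cells it was at 2697, 3154 and 1945 in control_TNF replicates 1 to 3, against 2341, 2243 and 1654 in control replicates 1 to 3. Replicate 3 was the lowest library of every group, at 0.536 to 0.73 times the mean of the other 2. The log2 difference with TNF was 0.22 in knockout cells (95% interval -0.41 to 0.86) and 0.31 in control cells (-0.32 to 0.94), neither passing (limma adjusted p = 0.856 and 0.998).

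**Figure D2:**
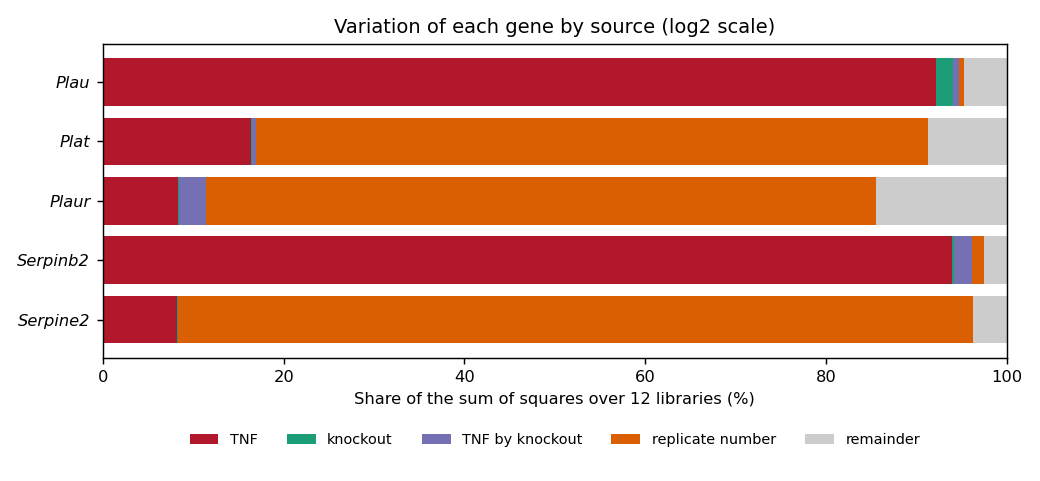
Share of each gene's sum of squares over the 12 libraries, on the log2 scale (horizontal axis, percent), taken by TNF, knockout, their interaction, replicate number and the remainder. TNF takes 92.2% for Plau and 94.0% for Serpinb2, and replicate number 74.4% for Plat, 74.2% for Plaur and 88.0% for Serpine2.

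The plot of variance shares divides the members into 2 kinds by their largest share. TNF took 92.2% of the variation of Plau and 94.0% of that of Serpinb2, where the median gene kept had 3.91%. Replicate number took 0.543% and 1.33% in these genes, but 74.4% in Plat, 74.2% in Plaur and 88.0% in Serpine2, where the median gene had 47.1%. TNF took 16.4% in Plat, 8.33% in Plaur and 8.21% in Serpine2, each above the 3.91% of the median gene. Most macrophage markers moved with the number as well. How many of all genes were highest or lowest in replicate 3 of every group was not counted. With 47.1% of the median gene's variation taken by number, the marker counts do not show a pattern particular to a cell type. Of 10, 6 were highest in replicate 3 of every group, Lyz2 (2172 to 2438 normalized counts there) with the largest share of the sum, while Mrc1 was highest in replicate 3 of no group. Their sum was 3496 to 4053 in the 4 libraries numbered 3, against 1444 to 2122 in the other 8. Of 13 synoviocyte markers, 8 were lowest in replicate 3 of every group, the collagens Col1a1, Col1a2 and Col3a1 with most of the sum, while Thy1, Pdpn, Vim, Dcn and Fap went in different directions by group. Their sum was 209957 to 395434 in the libraries numbered 3, against 405556 to 570515 in the other 8. The part of either list in the levels of Plaur, Serpine2 and Plat was not tested. By TNF the macrophage sums overlapped, at 1893 to 3529 in SoxC_KO_TNF and 1714 to 4039 in SoxC_KO libraries, and at 1567 to 4053 in control_TNF and 1444 to 3496 in control libraries. Without the block 0 of 8 macrophage, 0 of 7 endothelial and 0 of 2 neutrophil genes tested passed for TNF, alone or averaged, while the synoviocyte markers Dcn (log2 0.75, limma adjusted p = 0.0121) and Pdpn (0.53, adjusted p = 0.0419) rose for the average. With the block, the neutrophil gene S100a8 rose in knockout cells (log2 1.08, limma adjusted p = 0.0267), in control cells (1.45, adjusted p = 0.00512) and for the average (1.26, adjusted p = 0.00051). Camp rose with the block in control cells (log2 0.93, adjusted p = 0.0358) and for the average (0.61, adjusted p = 0.0275), and the macrophage gene Cd14 for the average (0.64, adjusted p = 0.00799). Of the 13 synoviocyte markers, 2 rose (Dcn and Pdpn) and 4 fell (Col1a1, Col3a1, Prg4 and Vim) for the average with the block. The part of these in the TNF differences of Serpinb2 and Plau was not tested.

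Within same-numbered libraries, TNF minus no TNF was positive in 6 of 6 pairs for Plau (1.24- to 1.55-fold) and for Serpinb2 (3.23- to 8.59-fold), a pattern that 4.91% of all genes showed. Plat was higher in 5 of 6 pairs (0.951- to 1.41-fold), Serpine2 in 5 of 6 (0.99- to 1.19-fold) and Plaur in 4 of 6 (0.88- to 1.58-fold). For Plat and Serpine2 the pair that differed was replicate 3 of the knockout cells, the libraries that also gave Serpinb2 its highest fold. With replicate number as a block in the fit, Plau passed in knockout cells (limma adjusted p = 0.0349) and not in control cells (adjusted p = 0.101), and for the average at adjusted p = 0.00437. The block raised the calls among all genes to 1.78% higher in knockout cells, 1.18% in control cells and 3.01% for the average. The blocked average difference was 0.27 for Plat (95% interval 0.06 to 0.48, limma adjusted p = 0.171), 0.24 for Plaur (-0.03 to 0.50, adjusted p = 0.388) and 0.15 for Serpine2 (-0.03 to 0.33, adjusted p = 0.45).

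**Figure D3:**
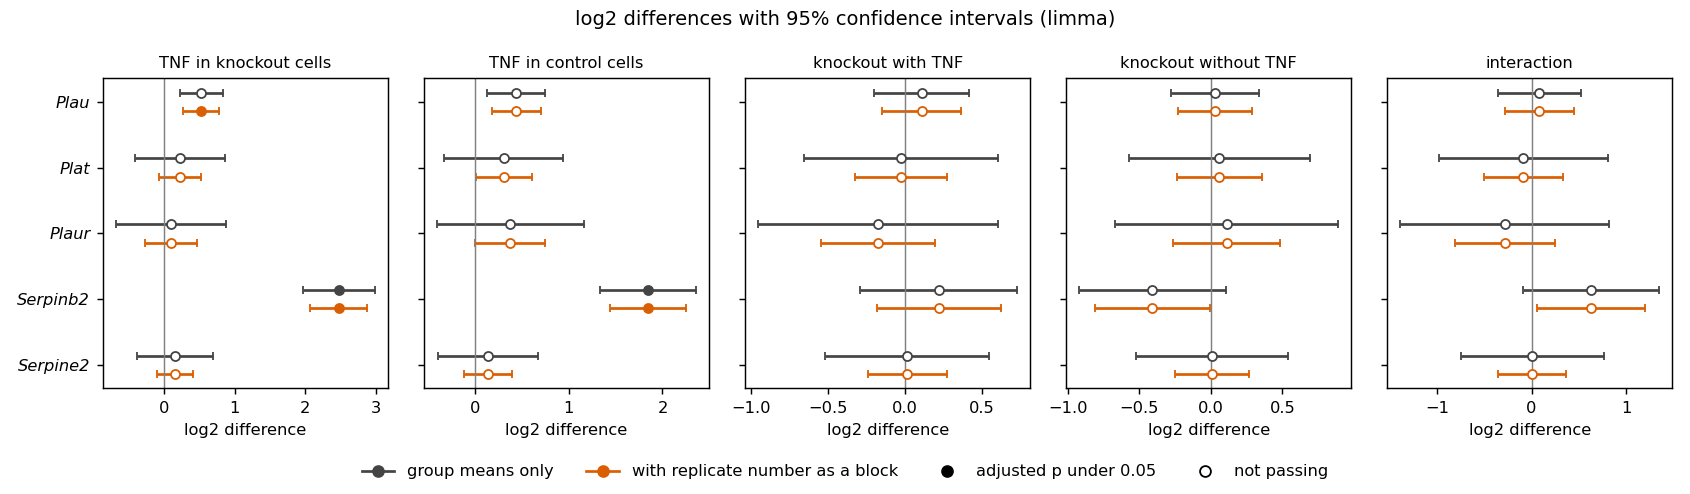
log2 differences (horizontal axes) of the 5 genes in 5 comparisons with 95% confidence intervals from limma, grey without and orange with replicate number as a block; filled points passed an adjusted p of 0.05. Serpinb2 is filled in both TNF panels, Plau only with the block in knockout cells, and no point is filled for knockout or the interaction.

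Loss of SOXC gave no called difference in any member. Sox4, one of the SOXC genes, was at 601 to 1086 normalized counts in SoxC_KO_TNF libraries and 1626 to 3646 in control_TNF libraries, and at 548 to 1433 in SoxC_KO libraries and 1857 to 4238 in control libraries. Sox11 was at 29.5 to 104 in SoxC_KO_TNF and 138 to 248 in control_TNF libraries, and at 26.8 to 175 in SoxC_KO and 153 to 272 in control libraries. Sox12 was at 86.5 to 159 in SoxC_KO_TNF and 237 to 326 in control_TNF libraries, and at 194 to 259 in SoxC_KO and 162 to 352 in control libraries. Without TNF the genotypes thus overlapped for Sox11 and Sox12, and Sox12 was higher in SoxC_KO replicate 3 than in control replicate 3. Which exons Cre excises was not stated in the labels, and these levels do not measure the deletion itself. Limma called 0 of the 5 members and 0% of 18139 genes for knockout without TNF, for knockout with TNF and for the interaction, and 0 members had an unadjusted p under 0.05 in any of the 3. At unadjusted p under 0.05 stood 176, 233 and 273 of all genes in these comparisons. Plau differed by 0.11 with TNF (95% interval -0.20 to 0.42) and by 0.03 without it (-0.28 to 0.34). Serpine2 differed by 0.02 with TNF (-0.52 to 0.55) and by 0.01 without it (-0.53 to 0.54). Plaur and Plat had wider intervals, from -0.96 to 0.61 and from -0.66 to 0.61 with TNF.

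Serpinb2 had the largest interaction estimate of the 5 members, and it did not pass. Without TNF, Serpinb2 was at 350 to 675 normalized counts in SoxC_KO libraries and 625 to 705 in control libraries. These groups overlapped (exact two-sided permutation p = 0.3). By same-numbered library, a matching that the labels do not state, knockout cells held 0.561 to 0.957 times the control value. The log2 difference was -0.41 (95% interval -0.92 to 0.10, limma adjusted p = 0.999). With TNF the difference was 0.22 (-0.29 to 0.73, adjusted p = 0.998), higher for 2 of 3 numbers. The interaction, the response in knockout cells minus that in control cells, was 0.63 (SE 0.33, 95% interval -0.09 to 1.35, limma adjusted p = 0.884). With the block its interval was 0.06 to 1.20 (unadjusted p = 0.0331, limma adjusted p = 0.284), and that of the difference without TNF was -0.81 to -0.01 (unadjusted p = 0.0469, adjusted p = 0.653). Without SoxC_KO replicate 3, the library with the lowest Serpinb2 value of all, the interaction was 0.38 and the difference without TNF -0.16. With the block 17.2% of all genes had an unadjusted interaction p under 0.05. For knockout without TNF, 4.55% of all genes had an unadjusted p under 0.05 with the block. In both comparisons 0 genes passed the adjustment. The interactions of the other 4 members were between -0.28 (Plaur) and 0.08 (Plau), at limma adjusted p of 0.894 or more.

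Around the members, the wider plasminogen list held 43 genes, of which 35 were tested. It held Plg, receptors, clearance genes, co-factors and other inhibitors, and also other serine proteases, coagulation genes and growth factors. Masp1 and Prss23, given below, belong to the other proteases. For the average TNF effect 1 rose and 2 fell (limma adjusted p under 0.05), against 0.877% of all genes called higher and 0.292% called lower, and the list's median log2 difference was -0.06, against -0.0011 over all genes. Itgb3, the integrin beta 3 subunit of the vitronectin receptor, averaged 1831 ± 301 normalized counts in SoxC_KO_TNF against 827 ± 34.2 in SoxC_KO, with 1854 ± 397 in control_TNF against 787 ± 142 in control (SD, n = 3 each). Its average log2 change was 1.18 (SE 0.15, limma adjusted p = 0.00291), and it was the 1 listed gene called in control cells (log2 1.23, adjusted p = 0.0499), where 0.287% of all genes were called higher. In knockout cells, where 0.243% were, 0 listed genes were called, and Itgb3 differed by 1.13 (limma adjusted p = 0.0783, and 0.00163 with the block). Its interaction was -0.10 (95% interval -0.78 to 0.58). Masp1, a serine protease of the lectin pathway of complement, averaged 1652 ± 130 in SoxC_KO_TNF against 2416 ± 342 in SoxC_KO, with 1486 ± 364 in control_TNF against 2831 ± 442 in control (SD, n = 3 each; log2 -0.74, limma adjusted p = 0.0435). Prss23, a secreted serine protease, averaged 2299 ± 243 in SoxC_KO_TNF against 3616 ± 362 in SoxC_KO, with 2214 ± 216 in control_TNF against 3613 ± 124 in control (SD, n = 3 each; log2 -0.68, limma adjusted p = 0.0138); the antisense gene Prss23os overlaps it, and its reads may not be separable. With the block, which called 3.01% of all genes higher and 2.18% lower, 4 listed genes rose and 4 fell for the average. Those added were Tfpi2, a Kunitz inhibitor of plasmin (log2 0.87), Itgav, the partner chain of Itgb3 (0.61) and Thbd, the thrombin receptor thrombomodulin (0.37), and on the lower side the plasminogen-binding protein Clec3b (-1.20) and tissue factor, F3 (-0.38). Thbs1, the matrix protein with the highest mean of the list at 90722 normalized counts, did not pass (log2 -0.06, limma adjusted p = 1 without the block and 0.875 with it).

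**Figure D4:**
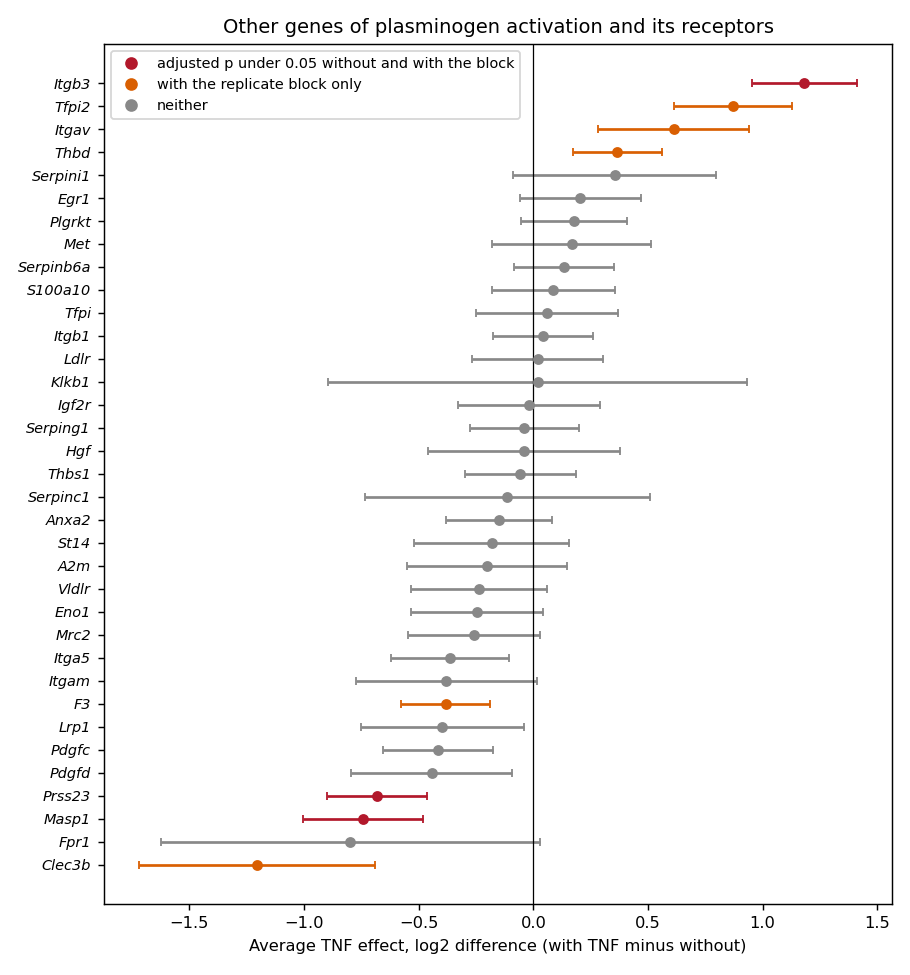
Average TNF effect (horizontal axis, log2 difference, with TNF minus without) on the 35 tested genes of the wider plasminogen list, with 95% intervals from the fit with replicate number as a block. Itgb3 is the highest at 1.18, and Prss23 and Masp1 are the 2 genes below 0 that passed both without and with the block.

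Serpinb2 was the 1 clade B serpin called for TNF without the block. Of the 28 other genes listed with the clade, Serpine3 and a pseudogene among them, 9 were tested. In either TNF comparison or for the average, 0 of these passed (limma). Over all genes 0.877% were called higher and 0.292% lower for the average, so 0 calls among 9 genes is close to that share. For the average 1 had an unadjusted p under 0.05 in each direction, against 8.17% of all genes in either direction. The list's highest member, Serpinb6a, an intracellular serpin, averaged 8588 normalized counts and had an average log2 difference of 0.13 (limma adjusted p = 1). Serpinb1a, an inhibitor of neutrophil proteases, averaged 96.3 ± 36.3 in SoxC_KO_TNF against 163 ± 65.7 in SoxC_KO, with 92.7 ± 42.0 in control_TNF against 146 ± 40.7 in control (SD, n = 3 each), and fell by 0.73 on the log2 scale with the block only (limma adjusted p = 0.00942). The block called 2.18% of all genes lower for the average. On chromosome 1 the 12 clade B genes lie within 749 kb. Apart from Serpinb2, Serpinb8 was the 1 gene there that passed the filter (highest value 155 normalized counts, average log2 difference -0.17), and the other 10 stayed at 13.9 or less in every library, 4 of them at 0 in all 12.

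The genes whose 12 library values followed Serpinb2 most closely were Ptpn22 (Pearson r = 0.993), Vcam1 (r = 0.989) and Rffl (r = 0.984), each with a rank correlation of 0.853 or more. In the 4 centred group means, the nearest genes were Il1a, Tslp and Csf2, with mean absolute differences of 0.06, 0.08 and 0.10 on the log2 scale. Those nearest Plau over the libraries were Vcam1 (r = 0.963), Blnk (r = 0.962) and Tlr2 (r = 0.954), with rank correlations of 0.776 or more. By group means they were Tgif1, Otud1 and Cemip, at 0.02 each. For the members that followed the library number, the nearest genes over 12 libraries were Cck, Gtpbp6 and Atox1 for Plaur (r = 0.987, 0.984 and 0.983), Psmc2, Rab3ip and Psmd8 for Serpine2 (r = 0.988, 0.988 and 0.984) and Nrp2, Oasl2 and Tnc for Plat (r = 0.962, 0.957 and 0.955), with rank correlations of 0.909 or more. By group means, genes among the nearest were Rnf135, Ociad2 and Zswim4 for Plaur, Optn, Afg3l2 and Pbdc1 for Serpine2, and Isg20 and Anxa7 for Plat, at 0.0129 or less. These are descriptions over libraries that share their groups and numbers, and carry no test.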

How the data were processed

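The deposited table holds 1 log2 value per gene and library, normalized by the authors per the file headers. The submitters' processing notes name DESeq and the build mm10; aligner, annotation and strand setting were not stated. Values were raised to the power of 2, with values listed as 0 kept at 0, since the deposited log2 values show no added pseudocount. Only 40.0% to 44.4% of low values were whole multiples of the commonest one (53.9% to 63.2% with mid-steps; tolerance 0.01 step), which does not give back whole reads, and no count test was applied.

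The planned tests assumed normalized counts, and the deposited unit proved to be log2 of these, hence the back-transformation. Estimated depth was 8.14M to 13.7M read pairs per library, taking the commonest low value as 1 read pair, which the check on whole multiples did not establish. Genes at 10 or more in at least 3 of 12 libraries were kept (18139) and analysed as log2(value + 1), which understates changes of low genes. R 4.3.3 with limma 3.58.1 fitted 1 mean per group over all libraries, with an intensity trend and Benjamini-Hochberg adjustment at 0.05. The fit was tested on simulated data. Exon lengths came from GENCODE M21, which holds 99.8% of the identifiers, and promoter windows from RefSeq (GRCm38.p6). Itgam, given to 2 identifiers, was read from the higher one. Named genes are the members, listed genes called for a TNF effect, the highest of each list and the 3 nearest in pattern by each of 2 measures. Genes named beyond these (Serpinb8, Serpinb10, Prss23os, Serpinb1a, the genes added by the block, markers and the SOXC genes) were chosen after their values were seen. Members, lists and tests were chosen with earlier results of these data known. A gene of the wider list and a gene near in pattern are not reported here.

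To see whether replicate numbers pair the libraries, deviations from the group means were correlated between libraries of the same number. The correlation exceeded the cutoff of 0.1 in every pair for TNF in knockout cells (0.148 to 0.501), TNF in control cells (0.103 to 0.715) and knockout without TNF (0.457 to 0.707), and not for knockout with TNF (0.0537 to 0.526). Only libraries of the same number were compared. Where the libraries of a given number stand apart in every group, the remaining numbers deviate together, which can give positive values without any pairing. The check therefore cannot decide whether the numbers pair the libraries, and the labels do not state it. The block and the comparisons of same-numbered libraries take the numbers as a matching that was not shown. Alternatives were other pseudocounts, filters and scalings, the block, robust fits, library weights, fits to 2 groups, and left-out libraries.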

Additional observations from a re-analysis of the deposited data

How the results depend on the processing

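The limits of these results are the 3 libraries per group, their dependence on replicate number and 2 libraries with liver transcripts. Over the 5 members in 6 comparisons, the direction and side of the threshold were kept in 327 alternatives other than left-out libraries, and changed in the following. All differences are log2 values.

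The fit with replicate number as a block called 310 genes for TNF in control cells, 505 in knockout cells and 941 for the average, and called 2 members in knockout cells, Plau (0.53) being added; it changed no other call of a member. Library weights called 6462, 921 and 3424 genes in the same comparisons and 40 for knockout without TNF, with 3 members in control cells (Plau at 0.35 and Plaur at 0.62 added), 2 in knockout cells (Plau at 0.52 added) and Plaur added for the average (0.45). Without the 4 libraries numbered 3, the counts were 274, 193 and 668 genes, and 1 for each knockout comparison. Without the 2 libraries with liver transcripts they were 15, 10 and 92, and 1 each for knockout with TNF and the interaction; 0 members passed in control cells (Serpinb2, at 1.79, was lost), and for the average 1 passed, Serpinb2, while Plau, at 0.50, was lost. Fits to the 2 groups alone called 0 genes in control and 3 in knockout cells and 0 members, with Serpinb2 at 1.85 and 2.48. With no filter 35 genes passed in control cells. For the average, Serpinb2 was the 1 member that passed with no filter and with quantile normalization, and Plau was lost in both, at 0.49 and 0.48. The causes were not tested.

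Signs that turned were all of uncalled differences. For knockout without TNF, Plau turned to -0.0326 and Serpine2 to -0.11 with quantile normalization, and Serpine2 to -0.0171 with library weights and -0.0065 without the libraries numbered 3. For knockout with TNF, Plat turned to 0.0144 with quantile normalization, 0.11 with weights and 0.0793 without the libraries numbered 3, and Serpine2 to -0.0418 without those with liver transcripts. For the interaction, Plat turned to 0.0642 with weights and 0.0248 without the libraries numbered 3, and Serpine2 to -0.0333 with upper-quartile scaling and -0.0499 without those with liver transcripts.

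With each library left out in turn, 5 to 84 genes passed in control cells, 14 to 55 in knockout cells and 118 to 253 for the average, with 0 to 1, 1 and 1 to 2 members. The fewest genes in control cells were called without control_TNF replicate 1, in knockout cells without SoxC_KO_TNF replicate 1 and for the average without control replicate 1. Serpinb2 ranged over 1.79 to 1.96 in control cells, and Plau over 0.46 to 0.51 for the average. Where signs turned, TNF gave -0.15 to 0.44 for Plaur in knockout cells and -0.0375 to 0.33 for Serpine2 in control cells. Knockout without TNF gave -0.0154 to 0.0771 for Plau, -0.23 to 0.36 for Plaur, -0.10 to 0.21 for Plat and -0.19 to 0.19 for Serpine2. Knockout with TNF gave -0.40 to 0.0353 for Plaur, -0.22 to 0.27 for Plat and -0.10 to 0.20 for Serpine2, and the interaction -0.53 to 0.0583, -0.28 to 0.21 and -0.18 to 0.21 for the same genes.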

Other observations

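The average TNF differences of the nearest expressed protein-coding genes on each side of the members lay on both sides of 0. Beside Plau, the average log2 difference with TNF was -0.35 for Camk2g, a calmodulin-dependent kinase subunit, and -0.77 for Vcl, the focal adhesion protein vinculin. Beside Plaur it was -0.07 for Smg9 and -0.56 for the adhesion molecule Cadm4. Beside Plat it was 0.17 for Ikbkb, a kinase of the NF-kB pathway, and -0.07 for Ap3m2. Beside Serpine2 it was -0.08 for Mrpl44 and 0.16 for Cul3. Beside Serpinb2 it was 0.15 for Vps4b and -0.17 for Serpinb8. These neighbours were chosen by position, as the nearest protein-coding gene on each side that passed the filter. Their distances ran from 4.51 kb (Ap3m2) to 714.7 kb (Vps4b), with Cul3 at 403.7 kb.

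Of 6 neutrophil markers, 2, Camp and S100a8, made up nearly the whole sum and were highest in replicate 3 of every group. The other genes, S100a9, Ltf, Ngp and Elane, were at or near 0 throughout. The sums overlapped slightly, at 1405 to 2374 normalized counts in the 4 libraries numbered 3, against 475.7 to 1426 in the other 8. The share of all genes highest in replicate 3 of every group was not counted. The part of the neutrophil markers in the levels of the members was not tested.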
